A study of Rattus norvegicus with 9 samples.

Results

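The renal outer medulla of rats given GapmeRs against Dnmt3a and Tet3 was compared with that of rats given a scrambled GapmeR, all on a 4% NaCl diet. The comparison holds 6 of the 9 RNA-seq libraries of the series, 1 per rat and 3 rats a side, chosen by their group labels. It was made at 14338 of the 30315 loci of the deposited expression table, those whose FPKM (fragments scaled by transcript length and by library size) averaged at least 1 over all 9 libraries. All rats are of the MCW SS strain, a Dahl salt-sensitive line kept at the Medical College of Wisconsin. Rats of the HS_DT group (replicates 1, 2 and 3 are rats 781, 782 and 862) received GapmeRs to both transcripts into the kidney, at 2 mg/kg each. The HS_SCR rats (784, 785 and 871) received a scrambled GapmeR by the same route, at 4 mg/kg. Both groups then ate the 4% NaCl diet for 7 days. The remaining group, on 0.4% NaCl (rats 859, 860 and 861), underwent the same surgery and gave tissue before any GapmeR or salt. Its values are set beside the comparison to place a level. Its libraries also enter the filter and, as a group of the same fit, the estimate of spread behind each SE and p from limma. No high-salt rats without a GapmeR were analysed here, so effects of the scrambled oligonucleotide and of the diet cannot be told apart in HS_SCR. The sources used here give no age or sex.

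DNMT3A is a de novo DNA methyltransferase that adds methyl groups to cytosines, mostly where a C is followed by a G, and TET3 oxidises such methyl groups on the way to their removal. A GapmeR is a short antisense oligonucleotide with a DNA centre between locked nucleic acid ends, which pairs with a transcript and has it cut by RNase H. The outer medulla is rich in the thick ascending limb of the loop of Henle, where the cotransporter NKCC2 (Slc12a1) reabsorbs sodium and chloride. It also holds the straight part of the proximal tubule, collecting ducts and bundles of vasa recta.

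The tissue label was checked against the markers of the thick ascending limb. SLC12A1 stood at 451, 473 and 482 FPKM in the HS_SCR libraries and at 564, 614 and 549.8 in the HS_DT libraries, and Umod (uromodulin) ranged from 381 to 2144 FPKM over these 6. Both markers of this segment were thus present in every library. The libraries of HS_SCR differed more among themselves than those of the other groups. The median over loci of the SD of log2(FPKM + 1) was 0.226 in HS_SCR, 0.113 in HS_DT and 0.105 on 0.4% salt. HS_SCR replicate 3 stood farthest apart, at -51.5 on principal component 2, which held 22.1% of the variance, against -2.34 to 24 for the other 8 libraries. Its mean Spearman correlation with the other HS_SCR libraries, across loci, was 0.936. By the same measure within their own group, HS_SCR replicates 1 and 2 stood at 0.9495 and 0.9554, and the HS_DT libraries at 0.972 to 0.980. Counts of calls over all loci are given with and without HS_SCR replicate 3. For gene lists the counts without it are given for some, and the medians where their sign turned. The share of summed FPKM on the mitochondrial chromosome ran from 20.6% to 30.5% in HS_SCR and from 25.4% to 28.6% in HS_DT. Read counts are not part of the table, so no counting error is given; the relative depth estimated from the lowest values ran from 0.767 to 1.38 over the 6 libraries.

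The targeted transcripts were read first. Dnmt3a (chromosome 6, 38011928 to 38155093, build rn5) stood at 7.05, 5.75 and 10.3 FPKM in the 3 HS_SCR libraries and at 8.72, 10.3 and 11.02 in the 3 HS_DT libraries. The 2 ranges overlapped, and the HS_DT mean was the higher one. Its log2 change, HS_DT minus HS_SCR, was 0.37 ± 0.18 (SE, n = 3 a side; limma adjusted p = 0.303; exact two-sided permutation p = 0.3, where 3 against 3 cannot give less than 0.1). Tet3 (chromosome 4, 179650809 to 179747550) stood at 5.04, 5.47 and 8.204 FPKM in HS_SCR and at 7.62, 8.54 and 7.92 in HS_DT. Here too the ranges overlapped with the HS_DT mean above, by 0.34 ± 0.15 in log2 (limma adjusted p = 0.271; exact permutation p = 0.3). The 95% intervals of the log2 change ran from -0.04 to 0.77 for Dnmt3a and from -0.01 to 0.69 for Tet3.

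Neither transcript had a lower mean in the libraries labelled HS_DT, so the transcript level does not check the label, and every direction given here is that of the libraries so labelled. In both genes the highest HS_SCR value was that of replicate 3. Without that library the log2 change was 0.57 for Dnmt3a (limma adjusted p = 0.0212) and 0.53 for Tet3 (limma adjusted p = 0.0143), and both transcripts were then called higher. On 0.4% salt Dnmt3a stood at 13.4, 12.2 and 12.9 FPKM and Tet3 at 9.38, 8.47 and 9.64, so the 0.4% salt values of Dnmt3a lay above all of its high-salt values, while for Tet3 the highest HS_DT value lay above the lowest 0.4% salt value. Whether the FPKM of these loci counts fragments of a transcript that RNase H has already cut is not stated in the sources used here, and protein and methylation were not analysed here.

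**Figure D1:**
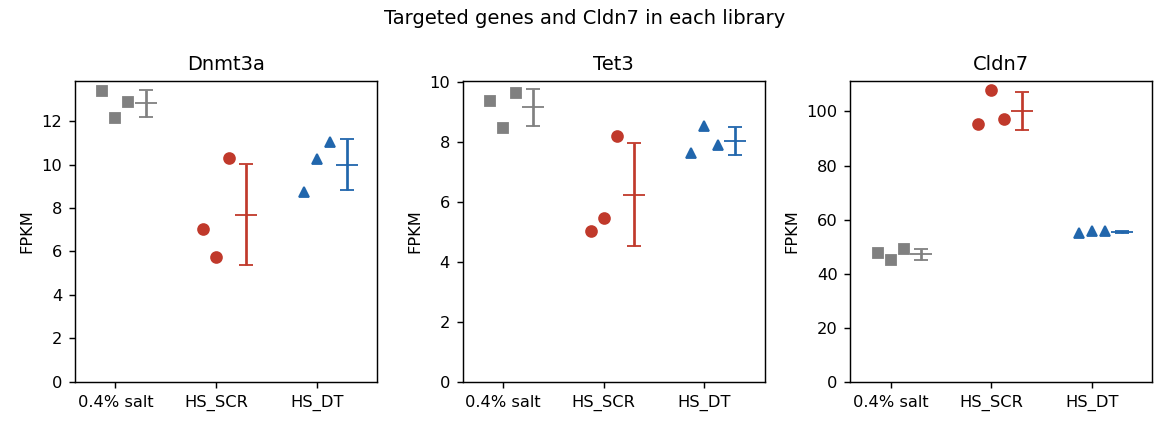
FPKM of Dnmt3a, Tet3 and Cldn7 in each of the 9 libraries by group (points), with the mean and SD of each group (bars, n = 3). The HS_DT values of Dnmt3a (8.72 to 11.02) and Tet3 (7.62 to 8.54) lie within or above those of HS_SCR, while all 3 HS_DT values of Cldn7 (55.0 to 55.8) lie below the lowest HS_SCR value (95.2).

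A single locus passed the test. With limma on log2(FPKM + 1) and Benjamini-Hochberg adjustment over the 14338 loci, 0 loci were called higher in HS_DT (0.00% of those tested) and 1 was called lower (0.00697%), at an adjusted p under 0.05. At an unadjusted p under 0.05 there were 1156 loci with a higher mean (8.06%) and 1576 with a lower mean (11%). The second smallest adjusted p was 0.0644, shared by 163 loci, and an adjusted p under 0.1 was reached by 162 loci upward (1.13%) and 387 downward (2.70%). The FPKM ranges of the 2 groups did not overlap at 1305 loci with HS_DT above (9.10%) and at 1798 with HS_DT below (12.5%). Over all loci the median log2 change was 0.00, with quartiles of -0.16 and 0.18, so the distribution as a whole was centred. Differences beyond 2-fold were more often upward, at 194 loci against 77 downward.

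**Figure D2:**
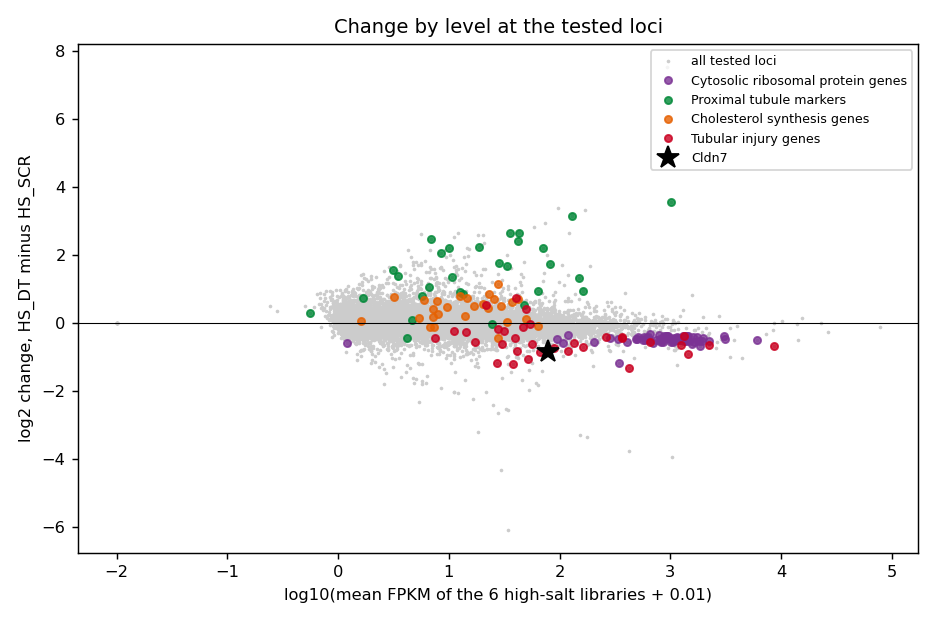
Log2 change (HS_DT minus HS_SCR, on log2(FPKM + 1)) of each tested locus against log10 of its mean FPKM over the 6 high-salt libraries, with the members of 4 gene lists in colour and Cldn7 as a star. Abundant loci lie more often below 0: the median change is 0.074 in the lowest of 5 equal bins by mean and -0.095 in the highest.

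Direction moved with the level and the width of a locus. In the highest of 5 equal bins by mean (from 32.3 FPKM), 23.8% lay wholly below the HS_SCR range and 4.53% wholly above it, against 6.0% and 13.1% in the lowest bin (1 to 3.36 FPKM). In the narrowest of 5 equal bins by width (up to 7.87 kb) the shares were 17.2% below and 4.25% above, and in the widest (91.7 kb or more) 7.01% and 13%. The part of these trends in the single-gene results was not tested, except by removing the width trend from each library, which is given where it moves a result.

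Cldn7, which encodes the tight-junction protein claudin-7 of the distal nephron and collecting duct, was the locus that fell. It lies at chromosome 10, 56321560 to 56323745 (rn5) and stood at 95.2, 108 and 97.2 FPKM in HS_SCR and at 54.95, 55.7 and 55.8 in HS_DT. The HS_DT values were nearly identical to one another and well under all 3 HS_SCR values. The means were 100.2 ± 6.98 and 55.5 ± 0.455 FPKM (SD, n = 3), which is -0.84 ± 0.075 in log2 (SE; adjusted p = 0.0307 in limma; p = 0.1 in the exact permutation test, its lower bound here). On 0.4% salt it stood at 47.6, 44.9 and 48.97 FPKM. The direction was the same in all 21 alternatives, and the call was lost in 9 of them. Among these were leaving out HS_SCR replicate 2 (-0.78, limma adjusted p = 0.117) or any 1 of the HS_DT libraries 1, 2 and 3 (adjusted p = 0.207, 0.220 and 0.188). Others were removing the width trend (-0.73, adjusted p = 0.0576) and fitting only the 6 high-salt libraries (adjusted p = 0.193).

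Among 21 tested claudins and other tight-junction genes, 10 had a higher and 11 a lower mean, the ranges lay apart in 1 upward and 4 downward, and the median was -0.085, or 0.02 with the width trend removed. Besides Cldn7, Cldn4, a claudin of the collecting duct and thin limb, stood at 160.2, 143 and 172 FPKM in HS_SCR and 107, 119 and 111 in HS_DT (log2 change -0.49 ± 0.086, limma adjusted p = 0.0644). Its ranges did not overlap, but it missed the threshold. Without HS_SCR replicate 3, 2 of the 21 were called higher and 4 lower, against 6.75% and 9.29% of all loci in that fit, and the median was -0.039.

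Since the targeted enzymes act on CG dinucleotides, the stretch just upstream of the transcription start is shown for 4 of the genes the results turn on, Cldn7 and Pax8 with lower means in HS_DT and Plekha6 and Rbl1 with higher means. The sequences are the 250 bases before the start in RefSeq's table for GRCr8, a later build than the rn5 of the expression table, with each CG in capitals. They are chr10:55188420-55188669 on the plus strand, chr3:27640632-27640881 on the minus strand, chr13:47183159-47183408 on the plus strand and chr3:166289377-166289626 on the minus strand, each written 5′ to 3′ along its gene.
Cldn7: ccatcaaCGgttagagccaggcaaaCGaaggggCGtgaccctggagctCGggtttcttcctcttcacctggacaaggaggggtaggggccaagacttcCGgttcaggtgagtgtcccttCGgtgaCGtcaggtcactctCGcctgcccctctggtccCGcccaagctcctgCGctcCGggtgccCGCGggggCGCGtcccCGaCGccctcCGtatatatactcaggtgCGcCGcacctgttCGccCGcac
Pax8: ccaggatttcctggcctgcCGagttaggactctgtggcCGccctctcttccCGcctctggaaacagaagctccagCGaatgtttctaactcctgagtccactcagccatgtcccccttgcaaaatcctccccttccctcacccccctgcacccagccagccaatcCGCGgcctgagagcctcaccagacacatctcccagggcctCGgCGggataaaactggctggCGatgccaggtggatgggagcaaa
Plekha6: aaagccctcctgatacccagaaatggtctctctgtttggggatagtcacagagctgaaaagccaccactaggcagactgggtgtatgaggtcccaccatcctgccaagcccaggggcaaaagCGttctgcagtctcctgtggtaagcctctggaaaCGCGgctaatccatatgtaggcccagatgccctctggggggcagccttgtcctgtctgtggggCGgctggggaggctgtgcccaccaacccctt
Rbl1: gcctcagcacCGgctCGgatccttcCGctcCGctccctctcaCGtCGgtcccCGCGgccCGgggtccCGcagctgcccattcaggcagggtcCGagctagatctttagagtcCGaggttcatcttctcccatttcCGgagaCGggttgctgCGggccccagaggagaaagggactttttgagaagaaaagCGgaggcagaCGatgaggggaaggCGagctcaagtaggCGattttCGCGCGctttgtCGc
The windows hold 22, 9, 4 and 23 CG in that order, and with the next 50 bases added they hold 28, 11, 5 and 28. At least as many as the latter stand in 12.7%, 39.0%, 62.0% and 12.7% of the 33469 starts of the table, whose median is 7 and of which 94.5% hold at least 1 CG. The 9571 tested single-symbol genes with an entry hold more, with a median of 21 and quartiles of 13 and 29. Against these, Cldn7 and Rbl1 lay within the quartiles, and Pax8 and Plekha6 below the lower one. A CG count over the genes at either end of the comparison was set aside and is not read here. Only 77.0% and 77.5% of the 200 genes with the smallest p, higher and lower in HS_DT, have an entry.

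The other genes with the smallest p and ranges apart are given as values, since none passed the adjusted threshold. All had a limma adjusted p of 0.0644. Among those with a lower mean, Pax8, a transcription factor of the developing and adult renal epithelium, stood at 87.9, 91.4 and 104 FPKM in HS_SCR and 50.2, 60.8 and 56.6 in HS_DT (log2 change -0.75 ± 0.10). C1qc, a chain of the complement starter C1q made by macrophages, stood at 342, 391 and 353 FPKM in HS_SCR, against 190, 209 and 209 in HS_DT (log2 change -0.83 ± 0.11). Lgals3, which encodes galectin-3 and is known from injured tubules and macrophages, stood at 233, 170.2 and 205 FPKM in HS_SCR, against 126, 122 and 119 in HS_DT (log2 change -0.71 ± 0.11). In each of the 3 genes every HS_DT value lay below every HS_SCR value, and the 0.4% salt values were lower still for C1qc (113 to 147) and Lgals3 (87.9 to 91.03) but not for Pax8 (63.8 to 73.03).

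The largest log2 change of these lower genes was that of RGD1563319, at 57.2, 77.4 and 71.5 FPKM in HS_SCR and 32.6, 30.5 and 33 in HS_DT (log2 change -1.07 ± 0.13). Loci named as ribosomal protein genes were also among them. Rps28 stood at 2231, 2382 and 2222 FPKM in HS_SCR and 1366, 1443 and 1486 in HS_DT (log2 change -0.67 ± 0.10), and Rps4x at 122, 141 and 126 FPKM in HS_SCR, against 83.8, 80.3 and 91.3 in HS_DT (log2 change -0.60 ± 0.086). The locus named Rps4x lies on chromosome 4, at 35587237 to 35588153 (rn5). Whether its fragments come from the gene or from a processed pseudogene was not tested. The others are given by their log2 change. They were Blnk, an adaptor of B-cell and myeloid receptors (-0.57), Maf1, a repressor of RNA polymerase III (-0.46), Vasn (-0.52), Cnppd1 (-0.64) and Cd99 (-0.64).

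Among genes with a higher mean, Plekha6 stood at 29.8, 28.5 and 29.5 FPKM in HS_SCR and 44.7, 43.1 and 44.3 in HS_DT (log2 change 0.57 ± 0.064). It was called in the fit without a filter on low values (adjusted p = 0.0326). Rbl1, which encodes the retinoblastoma-like pocket protein p107, stood at 3.56, 2.795 and 3.56 FPKM in HS_SCR, against 6.36, 6.04 and 7.601 in HS_DT (log2 change 0.83 ± 0.12). Immp2l, a subunit of the mitochondrial inner membrane peptidase, had the largest difference of these genes, at 3.06, 1.91 and 1.55 FPKM in HS_SCR and 8.44, 11.8 and 9.86 in HS_DT (log2 change 1.82 ± 0.28). Its 0.4% salt values of 7.29, 14.9 and 14.6 FPKM overlapped those of HS_DT.

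Caln1, a calneuron of the calcium-sensor family, stood at 8.52, 4.83 and 5.78 FPKM in HS_SCR and 13.8, 15.6 and 18.4 in HS_DT (log2 change 1.22 ± 0.19). Lmod1, an actin nucleator of smooth muscle, stood at 1.36, 0.816 and 0.627 FPKM in HS_SCR, against 2.79, 2.71 and 3.83 in HS_DT (log2 change 1.09 ± 0.18). Both groups of Lmod1 were low in level but did not overlap. Ephb2, a receptor for ephrins, stood at 12.8, 10.3 and 10.8 FPKM in HS_SCR, against 17.5, 19.2 and 18.9 in HS_DT (log2 change 0.67 ± 0.11). The remaining higher genes were Myo10, a filopodial myosin (0.84 in log2), Tmem116 (0.87), ASPH (0.65), Amph (0.58), Brcc3, a deubiquitinase of DNA repair complexes (0.49), and Scrn3 (0.48).

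**Figure D3:**
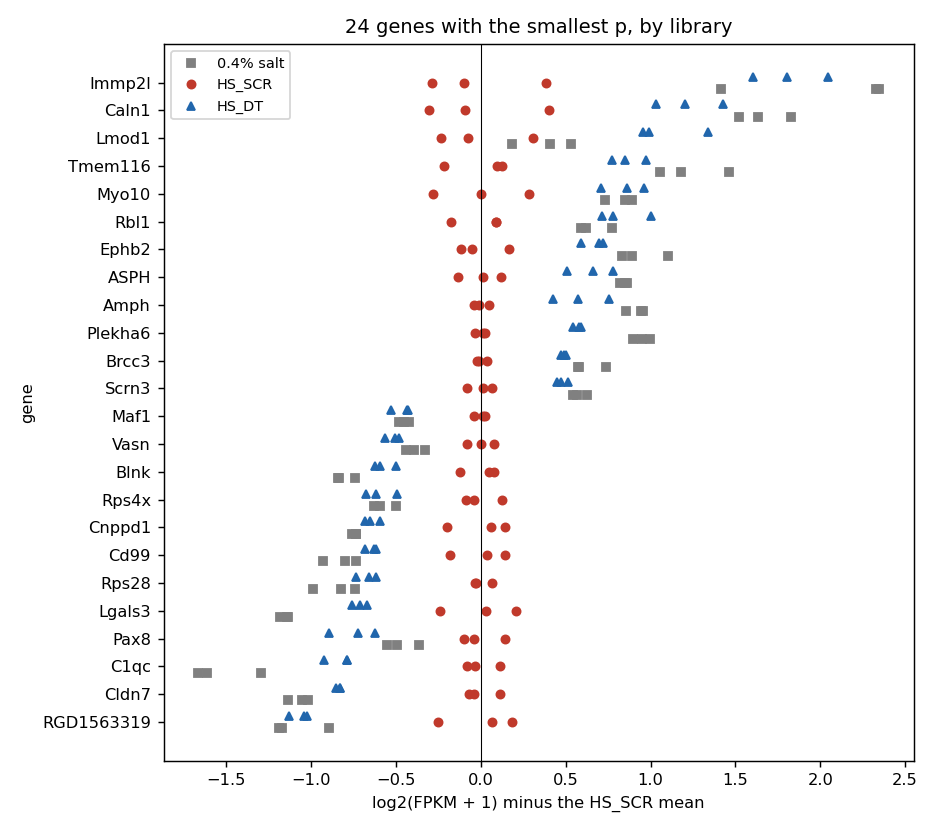
Log2(FPKM + 1) of 24 genes (12 per direction) in each library, minus the mean of the 3 HS_SCR libraries. They have the smallest p among genes whose HS_DT and HS_SCR ranges do not overlap. Circles are HS_SCR, triangles HS_DT and squares 0.4% salt. By that choice the 3 HS_DT points of every gene lie on the same side of the 3 HS_SCR points. Immp2l lies farthest above (1.82) and RGD1563319 farthest below (-1.07).

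Gene lists of nephron segments, cell types and pathways were then read by the number of tested members with a higher or lower mean, the number whose ranges lay apart, and the median log2 change. These are set against 49.6% of all loci with a higher and 50.3% with a lower mean. Of all loci, 9.10% had ranges apart upward and 12.5% downward, and the median was 0.00. For some lists the count at an unadjusted p under 0.05 is also given, against 8.06% of all loci upward and 11% downward. Apart from Cldn7 no member of any list passed the adjusted threshold in limma, and the 2 genes of each list with the smallest p are named with their values. In bulk tissue, fewer cells of a type and less RNA per cell cannot be told apart.

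**Figure D4:**
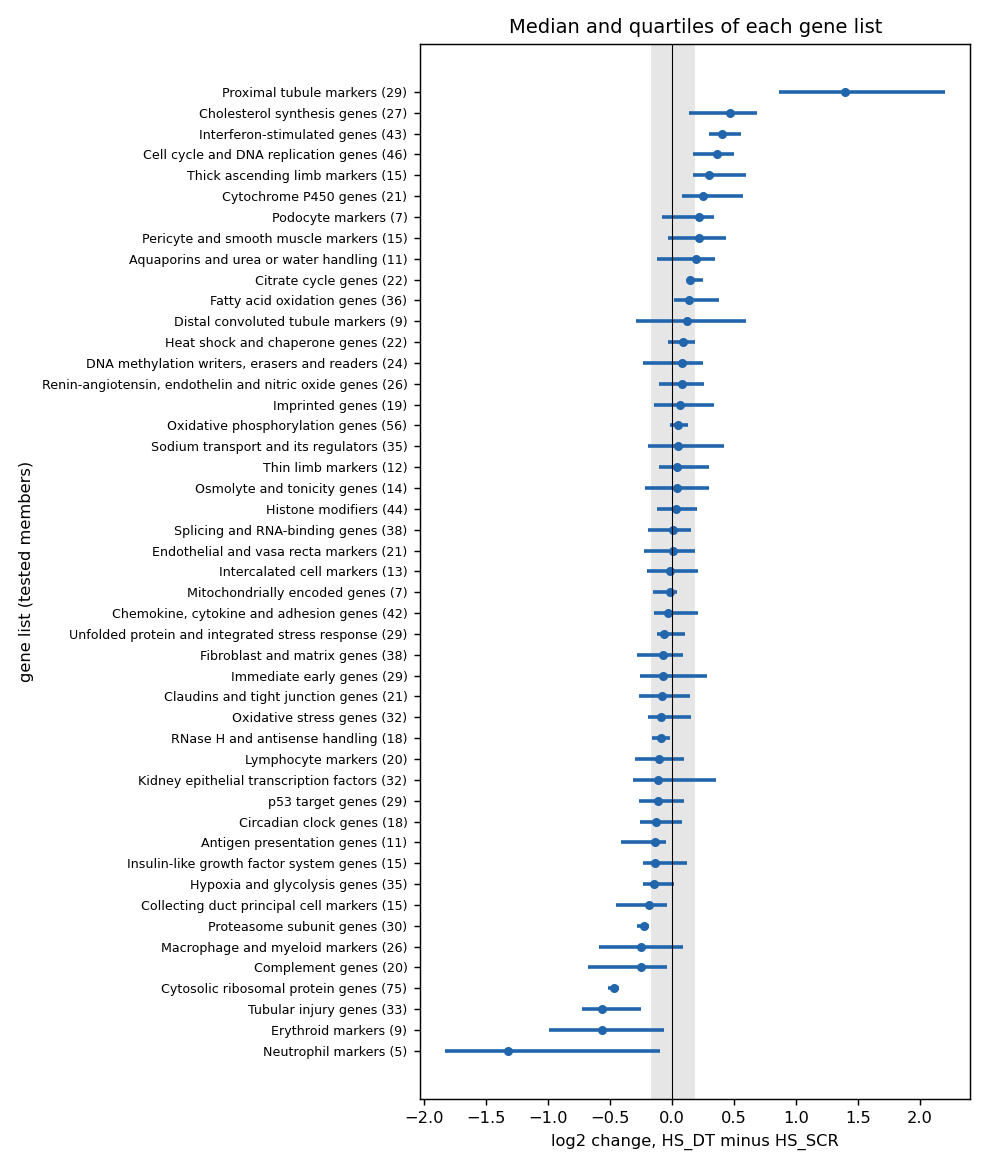
Median (point) and quartiles (line) of the log2 change, HS_DT minus HS_SCR, over the tested members of each gene list, with the number of tested members; the grey band spans the quartiles of all tested loci (-0.16 to 0.18). Proximal tubule markers (1.39) lie farthest to the right, and neutrophil markers (-1.33) and the lists of tubular injury and erythroid genes (both -0.56) farthest to the left.

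Genes of the proximal tubule had the largest median of any list. Of 29 tested markers, 27 had a higher mean in HS_DT, 12 had an unadjusted p under 0.05 upward and 0 downward, and the median was 1.39. Ces1d, a carboxylesterase, stood at 0.412, 5.87 and 0.0591 FPKM in HS_SCR and 8.66, 8.41 and 17.8 in HS_DT (log2 change 2.46 ± 0.70, limma adjusted p = 0.124). Hao2, a peroxisomal hydroxyacid oxidase, stood at 19.5, 57.95 and 28.7 FPKM in HS_SCR, against 65.1, 81.3 and 239 in HS_DT (log2 change 1.73 ± 0.58, adjusted p = 0.169). For both, HS_DT replicate 3 was far above the other HS_DT rats, and HS_SCR replicate 2 was highest in its group. Ranges lay apart in only 3 of the 29 markers. The summed level ran from 299 to 2318 FPKM in HS_SCR, from 1521 to 5367 in HS_DT and from 3372 to 7921 on 0.4% salt, so the 2 high-salt groups overlapped. The median was 0.71 without HS_DT replicate 3 and 1.49 without HS_SCR replicate 3. In the latter fit 0 of the 29 were called higher and 0 lower, against 6.75% and 9.29% of all loci.

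Slc5a2 and Slc5a12, transporters that mark this segment, were under the filter, and Slc5a12 was listed at 0 in all 3 HS_SCR libraries. Lists that hold genes of the proximal tubule were read beside these markers, and the markers' part in them was not tested beyond the values given. Of 21 cytochrome P450 genes, 16 had a higher mean (median 0.25), with ranges apart in 4. With the mean log2 level of those 29 markers added to the model the P450 median was -0.23, so its direction was not held. Cyp1b1, an extrahepatic P450, stood at 2.68, 1.29 and 1.93 FPKM in HS_SCR and 4.03, 4.94 and 4.65 in HS_DT (log2 change 0.92 ± 0.21, limma adjusted p = 0.0812), and Cyp2s1 had a change of -0.54 ± 0.21. Of 11 aquaporins and genes of urea or water handling, 7 had a higher mean (median 0.19, but -0.11 without HS_SCR replicate 3). The water channel Aqp1, of the proximal tubule and descending limb, stood at 328, 347 and 209 FPKM in HS_SCR, against 435, 377 and 386 in HS_DT (log2 change 0.47 ± 0.19, adjusted p = 0.222). Aqp3, of the collecting duct, had overlapping ranges (-0.53 ± 0.29). Gclc, the catalytic subunit of the glutathione-making glutamate-cysteine ligase, stood at 28.5, 93.5 and 34.8 FPKM in HS_SCR and 106, 140.3 and 226 in HS_DT (log2 change 1.70 ± 0.53, adjusted p = 0.151). As with Ces1d and Hao2, HS_SCR replicate 2 and HS_DT replicate 3 were highest in their groups.

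**Figure D5:**
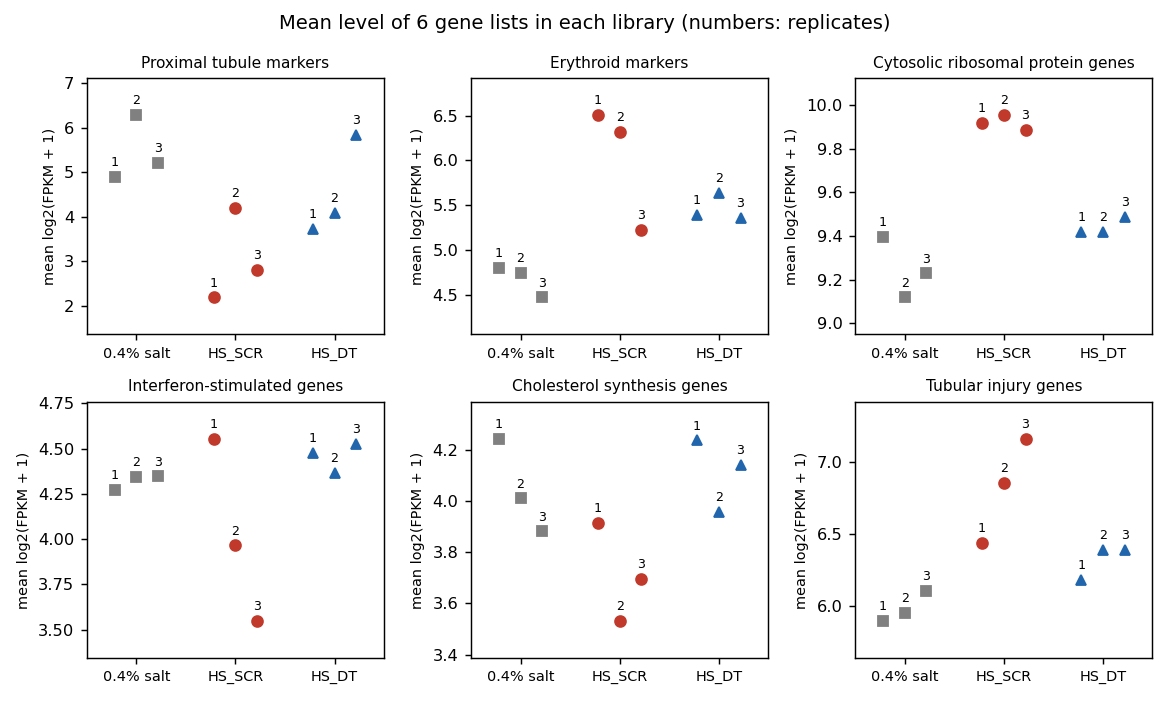
Mean log2(FPKM + 1) of the tested members of 6 gene lists in each library, by group. Proximal tubule markers overlap between HS_SCR (2.19 to 4.20) and HS_DT (3.73 to 5.84), whereas all 3 HS_DT libraries lie below all 3 HS_SCR libraries for ribosomal protein genes.

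Thick ascending limb markers were higher in mean in 13 of 15 (median 0.30), with ranges apart upward in 4 and downward in 1. SLC12A1, given above, did not overlap between the groups (log2 change 0.30 ± 0.11, limma adjusted p = 0.216); on 0.4% salt it stood higher, at 975, 926 and 739.8 FPKM. Umod overlapped, its lowest value being that of HS_SCR replicate 3. Casr, the calcium-sensing receptor, stood at 2.94, 6.38 and 6.04 FPKM in HS_SCR and 8.42, 11.1 and 11.2 in HS_DT (log2 change 0.92 ± 0.25, adjusted p = 0.117). Tmem72 had a change of 0.63 ± 0.16 (adjusted p = 0.0978). The summed level of the list ran from 1482 to 3479 FPKM in HS_SCR and from 2772 to 3757 in HS_DT, and its median was 0.15 without HS_SCR replicate 3.

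Downstream of it, 6 of 9 distal convoluted tubule markers had a higher mean (median 0.12), with ranges apart upward in 3. Egf, the epidermal growth factor precursor of the distal tubule, is also on the thick ascending limb list. It stood at 8.46, 8.07 and 1.19 FPKM in HS_SCR and 18.2, 18.1 and 15.9 in HS_DT (log2 change 1.68 ± 0.50, limma adjusted p = 0.138). HS_SCR replicate 3 was by far the lowest of the 6, and the other 2 HS_SCR libraries were also under all HS_DT values. Slc16a7, a monocarboxylate transporter, had a change of 1.26 ± 0.26 (adjusted p = 0.0692). Collecting duct principal cell markers were lower in mean in 11 of 15 (median -0.19). Krt18, a keratin of simple epithelia, stood at 54.8, 57.9 and 98.8 FPKM in HS_SCR, against 31.8, 30.6 and 34.6 in HS_DT (log2 change -1.05 ± 0.20, adjusted p = 0.0644). St6gal1 had a change of 0.29 ± 0.14 in the other direction.

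Intercalated cell markers were split, with 6 of 13 higher and 7 lower in mean; their median was -0.015, and 0.094 after quantile normalization. Atp6v0d2, a subunit of the proton pump, stood at 47.4, 52.6 and 48.3 FPKM in HS_SCR and 35.03, 34.99 and 38.1 in HS_DT (log2 change -0.44 ± 0.073, limma adjusted p = 0.0644), and the transcription factor Foxi1 had a change of -0.32 ± 0.16. Thin limb markers divided evenly (6 and 6 of 12; median 0.037, and -0.15 without HS_SCR replicate 3); the 2 with the smallest p were Cldn4, given above, and S100a6. The calcium-binding protein S100a6 stood at 1532, 1386 and 1611 FPKM in HS_SCR and 963, 932 and 981 in HS_DT (log2 change -0.65 ± 0.11, adjusted p = 0.0644).

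Of the vessel and stromal lists, 21 endothelial and vasa recta markers had a median of 0.01, or -0.14 without HS_SCR replicate 3, with 3 apart upward and 4 downward. EGFL7 (-0.51 ± 0.12) and the transcription factor Sox18 (-0.48 ± 0.12) were the endothelial genes with the smallest p, both with a lower mean. Of 15 pericyte and smooth muscle markers, 11 had a higher mean (median 0.21). Lmod1, given above, and the receptor Notch3 (0.47 ± 0.10) led that list; without HS_SCR replicate 3 its median was -0.01. Fibroblast and matrix genes were lower in mean in 26 of 38 (median -0.074, and 0.013 after quantile normalization), led by Vim, the intermediate filament vimentin (-0.42 ± 0.14), and Lox, the collagen cross-linking lysyl oxidase (-0.79 ± 0.28). Of 7 podocyte markers, which sit in cortical glomeruli, 4 had a higher mean (median 0.22). Podxl had a change of 0.45 ± 0.13, while Nphs1, the slit diaphragm protein nephrin, stayed under the filter with means of 0.0263 FPKM in HS_SCR and 0.0951 in HS_DT.

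Genes known to be raised in injured tubules had lower means in HS_DT almost throughout. Of 33 tested, 30 were lower in mean, 16 had an unadjusted p under 0.05 downward and 0 upward, 15 lay wholly below HS_SCR and the median was -0.56. Lgals3 and S100a6, given above, had the smallest p. Lcn2, the lipocalin NGAL used as a marker of kidney injury and also made by neutrophils, stood at 352, 648 and 850.3 FPKM in HS_SCR and 205, 256 and 232 in HS_DT (log2 change -1.33 ± 0.31, limma adjusted p = 0.084). All HS_DT values lay below HS_SCR, and the HS_SCR values differed more than 2-fold among themselves. Their summed level ran from 17840 to 26220 FPKM in HS_SCR and from 12960 to 14580 in HS_DT, with no overlap. Without HS_SCR replicate 3 the median was -0.35, and 12 of the 33 were then called lower and 0 higher, against 9.29% and 6.75% of all loci. The median after adjusting for the proximal tubule score was -0.56.

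Markers of white cells were also lower in mean. Of 26 macrophage and myeloid markers 18 had a lower mean and 8 lay wholly below HS_SCR, against 2 above (median -0.25, and 0.00 after quantile normalization). The summed level ran from 6937 to 8647 FPKM in HS_SCR and from 5293 to 6093 in HS_DT. Itgam, Itgax, Adgre1, Ccr2 and Lyz, also written into this list, had no entry under their names and were not read. C1qb, another C1q chain, stood at 178, 204 and 161 FPKM in HS_SCR and 80.01, 96 and 108 in HS_DT (log2 change -0.93 ± 0.15, limma adjusted p = 0.0644), close to C1qc given above. Complement genes, a list that holds both C1q chains, were lower in 16 of 20 (median -0.25), with 7 below and 1 above. Their summed level ran from 2226 to 2431 FPKM in HS_SCR and from 1728 to 1802 in HS_DT. Without HS_SCR replicate 3, 8 of the 26 macrophage markers and 5 of the 20 complement genes were called lower and 0 of either list higher, against 9.29% and 6.75% of all loci.

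Only 5 of the 16 neutrophil markers in the table passed the filter, and 4 of them had a lower mean (median -1.33); the defining granule genes Mpo, Elane, Ltf, Camp and Ngp were under it. S100a9, a calprotectin chain, stood at 46.7, 227 and 43.2 FPKM in HS_SCR and 14.5, 19.2 and 32.98 in HS_DT (log2 change -1.83 ± 0.58, limma adjusted p = 0.156). HS_SCR replicate 2 was several-fold above the other HS_SCR rats. Summed over the 5 genes, the level ran from 429 to 1091 FPKM in HS_SCR and from 233 to 297 in HS_DT. Lcn2, given above with the injury genes, is among them. It made up most of that sum in every high-salt library, and the list median is its own change. Lymphocyte markers had a median of -0.11 (0.05 without HS_SCR replicate 1 and -0.24 without replicate 3), with 13 of 20 lower in mean, and none lay wholly below HS_SCR. Ltb had a change of -0.46 ± 0.17 and Nkg7 of 0.46 ± 0.18, and the B-cell gene Cd79a and the natural killer cell gene Klrb1 were listed at 0. Antigen presentation genes were lower in 9 of 11 (median -0.14, but 0.00 without HS_SCR replicate 1 and -0.33 without replicate 3), led by the class II genes RT1-Ba (-0.44 ± 0.12) and RT1-Db1 (-0.56 ± 0.16), whose close relatives make the assignment of fragments uncertain. Of 42 chemokine, cytokine and adhesion genes 19 were higher and 23 lower in mean (median -0.035, and 0.00 after quantile normalization), led by the receptor Cxcr4 (-0.75 ± 0.24) and P-selectin, Selp (-0.46 ± 0.18). The part of the white-cell markers in the injury genes was not tested.

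Erythroid markers were lower in mean in 8 of 9 (median -0.56), but ranges lay apart in 1 of them. That gene was Ahsp, the chaperone of alpha haemoglobin, at 8.98, 8.42 and 2.27 FPKM in HS_SCR and 0.862, 2.22 and 1.602 in HS_DT (log2 change -1.43 ± 0.41, limma adjusted p = 0.125). Bpgm had a change of -0.32 ± 0.14. Hba1, the haemoglobin alpha chain, stood at 8246, 5325 and 1267 FPKM in HS_SCR and 1776, 2324 and 1695 in HS_DT. HS_SCR replicate 3 lay below every HS_DT rat and the other 2 HS_SCR rats above every one, and fragments of the near-identical alpha globin copies cannot be told apart. Without replicate 3 the median of the list was -1.25 and 6 of 9 were called lower (9.29% of all loci), among them Hba1 (-1.79, limma adjusted p = 0.013), Ahsp (-1.96, adjusted p = 0.0125) and Alas2, the first enzyme of haem synthesis in red cells (-1.77). The summed level ran from 1988 to 10800 FPKM in HS_SCR and from 2497 to 3362 in HS_DT. The part of blood left in the tissue was not tested.

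Interferon-stimulated genes had higher means, unlike the other immune lists. Of 43 tested 41 had a higher mean in HS_DT, 13 had an unadjusted p under 0.05 upward and 0 downward, 6 lay wholly above HS_SCR and the median was 0.40. Samd9l, an antiviral translation inhibitor, stood at 32.3, 21.5 and 20.3 FPKM in HS_SCR, against 38.9, 35.02 and 40.9 in HS_DT (log2 change 0.64 ± 0.16, adjusted p = 0.0986). The HS_DT rats were alike and HS_SCR replicate 1 was the closest to them. In sum the list ran from 799.8 to 1789 FPKM in HS_SCR and from 1427 to 1539 in HS_DT, so the groups overlapped. The median was 0.69 without HS_SCR replicate 1 and 0.19 without replicate 3, where 4 of the 43 were called higher and 1 lower, against 6.75% and 9.29% of all loci.

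Genes of the cytosolic ribosome had lower means in HS_DT without exception. All 75 tested had a lower mean in HS_DT, 70 of them lay wholly below HS_SCR and 73 had an unadjusted p under 0.05, with a median of -0.47. Their summed level ran from 95540 to 98470 FPKM in HS_SCR, from 68370 to 70110 in HS_DT and from 56040 to 66290 on 0.4% salt. The HS_DT libraries lay between the other groups and overlapped neither. The size of the change moved with the scaling: it was -0.12 after quantile normalization and -0.37 with the width trend removed. Without HS_SCR replicate 3 the median was -0.46, and 67 of the 75 were called lower, against 9.29% of all loci. These loci are short and abundant, as were the loci that lay lower in general, and many have processed pseudogenes whose fragments the authors' counting could assign either way. Proteasome subunit genes were lower in mean in all 30 tested, with 23 wholly below HS_SCR, a median of -0.23, and -0.13 after quantile normalization. Psma5 stood at 97.9, 85.9 and 90.1 FPKM in HS_SCR and 72.8, 70.2 and 70.9 in HS_DT (log2 change -0.35 ± 0.072, limma adjusted p = 0.0692), and Psmd8 had a change of -0.50 ± 0.11. Splicing and RNA-binding genes divided evenly (19 and 19 of 38; median 0.01, and -0.11 without HS_SCR replicate 3), with Snrpb (-0.32 ± 0.07) and U2af1 (-0.36 ± 0.11) lower in mean.

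Cholesterol synthesis genes were higher in mean in 23 of 27, 14 had an unadjusted p under 0.05 upward and 1 downward, and 13 lay wholly above HS_SCR (median 0.46). Stard4, a sterol carrier, stood at 4.701, 4.17 and 4.29 FPKM in HS_SCR, against 7.23, 6.898 and 8.62 in HS_DT (log2 change 0.67 ± 0.11, adjusted p = 0.0644). Its ranges lay apart. The summed level ran from 406 to 519 FPKM in HS_SCR and from 534 to 657 in HS_DT, and the median was 0.45 without HS_SCR replicate 3, where 10 were called higher and 1 lower, against 6.75% and 9.29% of all loci.

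Fatty acid oxidation genes were higher in mean in 28 of 36 (median 0.14), with 8 apart upward and 1 downward. Acsl1, which activates long-chain fatty acids, stood at 27.4, 22.9 and 20.7 FPKM in HS_SCR and 41.01, 38.04 and 35.3 in HS_DT (log2 change 0.67 ± 0.13, limma adjusted p = 0.0646), and the nuclear receptor Ppara had a change of 0.44 ± 0.14. Citrate cycle genes were higher in 21 of 22 (median 0.14), 6 of them wholly above HS_SCR, led by Dlat (0.35 ± 0.10) and Dlst (0.36 ± 0.11), both subunits of dehydrogenase complexes. Without HS_SCR replicate 3 that median was 0.052. With the proximal tubule score added, the medians of fatty acid oxidation and citrate cycle genes were 0.046 and 0.14. Nuclear genes of oxidative phosphorylation had a median of 0.05, with 38 of 56 higher in mean, and -0.14 without HS_SCR replicate 3. Their smallest p values were those of Uqcrc2 (0.28 ± 0.094) and Sdha (0.22 ± 0.098). The 7 mitochondrially encoded genes had a median of -0.018, with 0.46 after quantile normalization and -0.31 without HS_SCR replicate 3; MT-ND5 had a change of 0.20 ± 0.17 and MT-CO2 of -0.27 ± 0.26, both with wide errors.

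Cell cycle and DNA replication genes were higher in mean in 42 of 46 (median 0.36), with 9 apart upward and 2 downward. CCND2, the gene of cyclin D2, stood at 14.5, 10.1 and 10.4 FPKM in HS_SCR and 21.2, 18.8 and 21.9 in HS_DT (log2 change 0.79 ± 0.14, limma adjusted p = 0.0644). Ccnd1, of cyclin D1, stood at 61.1, 52.2 and 33.7 FPKM in HS_SCR, against 97.8, 85.8 and 82.3 in HS_DT (log2 change 0.88 ± 0.20, adjusted p = 0.0833). HS_SCR replicate 3 was the lowest library for Ccnd1. Without it the median of the list was 0.17. In that fit 3 of the 46 were called higher and 0 lower, against 6.75% and 9.29% of all loci. Without HS_SCR replicate 1 the median was 0.60. Insulin-like growth factor genes were lower in 11 of 15 (median -0.14). The binding protein Igfbp3 stood at 26.9, 25.2 and 31.1 FPKM in HS_SCR and 14.9, 17.1 and 16.01 in HS_DT (log2 change -0.76 ± 0.13, adjusted p = 0.0644). Igfbp1 stood at 164, 409 and 285 FPKM in HS_SCR, against 84.8, 118 and 137 in HS_DT (log2 change -1.26 ± 0.31, adjusted p = 0.0978).

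Of 24 tested writers, erasers and readers of DNA methylation, the targets included, 14 had a higher and 10 a lower mean, 3 lay apart upward and 2 downward, and the median was 0.082. Among writers, Dnmt3b was under the filter, with group means of 0.811 FPKM in HS_SCR and 0.819 in HS_DT, and Dnmt3l lower still. The maintenance methyltransferase gene Dnmt1 and the reader Mbd1 had no entry under their names, so neither was read. Uhrf1, which brings the maintenance methyltransferase to hemimethylated DNA, stood at 3.88, 2.65 and 1.48 FPKM in HS_SCR and 4.67, 5.26 and 5.65 in HS_DT (log2 change 0.81 ± 0.22, limma adjusted p = 0.117). Mat2a, which makes the methyl donor, stood at 49.7, 59.4 and 53.6 FPKM in HS_SCR, against 71.03, 68.3 and 80.7 in HS_DT (log2 change 0.43 ± 0.13, adjusted p = 0.145). Both had ranges apart with HS_DT above.

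Of the erasers, Tet2 stood at 3.88, 5.16 and 8.49 FPKM in HS_SCR and 5.89, 6.396 and 8.47 in HS_DT (log2 change 0.25 ± 0.24, limma adjusted p = 0.59), with overlapping ranges, and Tet1 was under the filter. Tdg, the glycosylase that removes oxidised methylcytosine, was nearly level, at 21.1, 19.2 and 18.1 FPKM in HS_SCR, against 21.3, 20.04 and 18.3 in HS_DT (log2 change 0.028 ± 0.087). Gadd45b, a stress-induced factor tied to demethylation, stood at 25.2, 21.9 and 33.2 FPKM in HS_SCR and 14.8, 20.2 and 15.3 in HS_DT (log2 change -0.64 ± 0.18, adjusted p = 0.124). Of the readers, Mbd2 stood at 114, 113 and 121 FPKM in HS_SCR, against 101, 99.3 and 83.5 in HS_DT (log2 change -0.30 ± 0.091, adjusted p = 0.147). Gadd45b and Mbd2 were the members wholly below HS_SCR. Without HS_SCR replicate 3, 6 of the 24 were called higher, Dnmt3a and Tet3 among them, and 1 lower, against 6.75% and 9.29% of all loci.

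Imprinted genes, whose expression depends on parental methylation marks, had a median of 0.066 over 19 tested (10 higher and 9 lower in mean). Mest, a paternally expressed gene, stood at 10.9, 6.83 and 12.1 FPKM in HS_SCR and 6.83, 5.31 and 4.67 in HS_DT (log2 change -0.70 ± 0.26, limma adjusted p = 0.195), and Igf2r had a change of 0.38 ± 0.17. Histone modifiers had a median of 0.033, with 7 of 44 apart upward and 6 downward. The X-linked H3K4 demethylase gene Kdm5c stood at 10.9, 9.98 and 15 FPKM in HS_SCR and 16.04, 22.1 and 25.9 in HS_DT (log2 change 0.78 ± 0.19, adjusted p = 0.0898), and the deacetylase Hdac5 had a change of -0.30 ± 0.077. Genes that handle antisense oligonucleotides, RNase H and uptake receptors among them, had a median of -0.093 over 18 tested (4 higher and 14 lower in mean), with 2 apart upward and 5 downward. Tlr3, an endosomal receptor for double-stranded RNA, stood at 18.1, 16.4 and 19.6 FPKM in HS_SCR and 25.7, 27.02 and 28.4 in HS_DT (log2 change 0.56 ± 0.097, adjusted p = 0.0644). Anxa2, which binds phosphorothioate oligonucleotides, stood at 469, 439.9 and 362 FPKM in HS_SCR, against 322, 320.3 and 292 in HS_DT (log2 change -0.44 ± 0.11, adjusted p = 0.0998).

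Genes of sodium handling and blood pressure showed no common direction. Of 35 genes of sodium transport and its regulators 19 were higher and 16 lower in mean (median 0.047), with 5 apart upward and 4 downward. Tsc22d3, the glucocorticoid- and aldosterone-induced leucine zipper GILZ, stood at 66.5, 114 and 116 FPKM in HS_SCR and 51.1, 45.6 and 53.5 in HS_DT (log2 change -0.93 ± 0.20, limma adjusted p = 0.0741). Kcnj10, a basolateral potassium channel of the distal nephron, stood at 5.53, 4.17 and 1.72 FPKM in HS_SCR, against 10.6, 9.595 and 7.52 in HS_DT (log2 change 1.17 ± 0.31, adjusted p = 0.112). Both had ranges apart. Of 26 renin-angiotensin, endothelin and nitric oxide genes 15 were higher and 11 lower (median 0.078), with 1 apart upward and 4 downward. Edn1, the precursor of endothelin-1, stood at 4.99, 4.24 and 7.77 FPKM in HS_SCR and 3.36, 3.17 and 2.97 in HS_DT (log2 change -0.64 ± 0.18, adjusted p = 0.117), and the prostaglandin E synthase gene Ptges had a change of -0.34 ± 0.08. Osmolyte and tonicity genes, which track medullary salt, had a median of 0.037 over 14 tested, and -0.074 without HS_SCR replicate 3, with Slc2a9 at 0.35 ± 0.14. Kidney epithelial transcription factors had a median of -0.11, with 4 of 32 apart upward and 8 downward; next to Pax8, given above, stood Tfap2b, of the distal nephron (0.53 ± 0.12, adjusted p = 0.0788).

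Oxidative stress genes were lower in mean in 23 of 32 (median -0.088, and 0.01 after quantile normalization), with Txn1, thioredoxin, at -0.26 ± 0.079. Hypoxia and glycolysis genes were lower in 25 of 35 (median -0.14), with the mitophagy receptor Bnip3l at -0.33 ± 0.072 and the phosphofructokinase Pfkm at 0.27 ± 0.087. Genes of the unfolded protein and integrated stress response had a median of -0.068 over 29, and 0.031 after quantile normalization, with Atf4 at -0.27 ± 0.14 and Dnajc3 at -0.13 ± 0.08. Heat shock and chaperone genes had a median of 0.09 over 22, but -0.18 without HS_SCR replicate 3 and 0.27 without replicate 1. Their small chaperone Hspb1 was at -0.70 ± 0.14 (limma adjusted p = 0.0664), and Hspa4l at 0.19 ± 0.12. Targets of p53 had a median of -0.12 over 29, and 0.032 without HS_SCR replicate 3, with Rrm2b at 0.38 ± 0.10 and the pro-apoptotic Bbc3 at -0.29 ± 0.082. Immediate early genes, which respond within minutes and can follow tissue handling, had a median of -0.077 over 29, or 0.033 with the width trend removed and 0.048 without HS_SCR replicate 3, with Ier3 at -0.76 ± 0.16 and Myc at -0.62 ± 0.14. Clock genes had a median of -0.13 over 18. Cry1, a repressor of the clock, stood at 3.27, 3.61 and 4.67 FPKM in HS_SCR and 1.53, 2.15 and 1.699 in HS_DT (log2 change -0.79 ± 0.15, adjusted p = 0.0644), and Per1 had a change of -0.99 ± 0.33 with overlapping ranges.

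Leaving out HS_SCR replicate 3 changed the count of calls more than any other omission. Against the 2 remaining HS_SCR rats, 968 loci were called higher (6.75% of 14338) and 1332 lower (9.29%) with limma at an adjusted p under 0.05. The whole range of all 6 libraries, replicate 3 included, lay apart at 335 (34.6%) of the higher and 717 (53.8%) of the lower calls. At the other calls the ranges of all 6 libraries overlapped. Leaving out HS_SCR replicate 1 gave 70 higher (0.488%) and 110 lower (0.767%), and leaving out HS_SCR replicate 2 or any HS_DT library gave 0 calls in either direction. Other settings that moved the count were a minimum mean of 5 FPKM, with 32 loci higher (0.310% of 10311) and 122 lower (1.18%), all of them also called without replicate 3, and library weights, with 622 higher (4.34%) and 874 lower (6.10%). Without a filter on low values 1 locus was called higher (0.00436% of 22911) and 2 lower (0.00873%).

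The largest changes without replicate 3 were those of Immp2l, given above, and Ccl12, a monocyte chemokine (1.62, limma adjusted p = 0.0434), with higher means. Ccl12 stood at 4.09, 0.703 and 0.996 FPKM in HS_SCR and 10.5, 7.5 and 6.54 in HS_DT. For the other 6 higher genes so chosen, replicate 3 lay above the lowest HS_DT value, and in Shank2, RGD1560833 and Nav3 above the highest. Shank2, a scaffold protein, stood at 1.52, 2.37 and 9.27 FPKM in HS_SCR and 5.36, 8.51 and 8.41 in HS_DT, a log2 change of 1.51 without replicate 3 and 0.90 with it. Ppargc1a, a coactivator of mitochondrial biogenesis, stood at 12.4, 18.2 and 30.96 FPKM in HS_SCR, against 28.4, 43.3 and 38.5 in HS_DT, a log2 change of 1.22 without and 0.88 with it. The others, with their log2 change without replicate 3, were Lifr (1.5), RGD1560833 (1.28), Nav3 (1.22) and Birc6 (1.22).

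Of the 8 lower genes of that fit, all but Csrp3 are known from red or white blood cells. S100a9 (-2.25), Pglyrp1, a neutrophil peptidoglycan-binding protein (-1.49), Cd52, of lymphocytes and monocytes (-1.45), and the haemoglobin genes given above were among them. Alox15, a lipoxygenase of macrophages and eosinophils, stood at 7.13, 15.9 and 3.26 FPKM in HS_SCR and 2.09, 3.23 and 2.63 in HS_DT (-1.69 without replicate 3, adjusted p = 0.0152). Csrp3, a muscle LIM protein, stood at 29.9, 47.6 and 5.36 FPKM in HS_SCR, against 13.7, 12.04 and 10.5 in HS_DT (-1.57 without replicate 3), with replicate 3 under every HS_DT value.

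The rat numbers fall into 2 series: replicates 1 and 2 of both high-salt groups are rats 781 to 785, while replicate 3 of each (862 and 871) and the 0.4% salt rats have numbers from 859 to 871. No source used here says what the series stand for. With the series as a factor, which leaves the log2 changes as they were and takes the difference between series out of the spread, 126 loci were called higher (0.879%) and 296 lower (2.06%). Of these, 112 (88.9%) and 280 (94.6%) were also called without HS_SCR replicate 3, where they made up 11.6% and 21.0% of the calls. All 6 libraries lay apart at 111 of the 126 and 290 of the 296. Among high-salt rats 781 to 785 alone, 2 against 2, 459 loci were called higher (3.20%) and 597 lower (4.16%). The higher-numbered series holds 1 rat of each high-salt group, so no test was possible within it.

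Among the lower calls with this factor, Apoe, a carrier of cholesterol that macrophages make in quantity, stood at 953, 1575 and 2353 FPKM in HS_SCR and 555, 685 and 732 in HS_DT (log2 change -1.22 ± 0.30; limma adjusted p = 0.093 without and 0.0456 with the factor). Serpina3n, an acute-phase protease inhibitor, stood at 18.1, 20.4 and 42.8 FPKM in HS_SCR, against 9.02, 11.2 and 9.04 in HS_DT (log2 change -1.29 ± 0.29). Cfd, complement factor D, stood at 32.4, 49.7 and 81.8 FPKM in HS_SCR, against 15.5, 20.99 and 18.97 in HS_DT (log2 change -1.43 ± 0.32; adjusted p = 0.0476 with the factor). In all 3 genes HS_SCR replicate 3 was the highest of the 6 libraries, and the other HS_SCR rats still lay above every HS_DT rat.

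Il19, a cytokine of the IL-10 family, stood at 17.1, 24.2 and 24.1 FPKM in HS_SCR and 6.78, 11.7 and 11.04 in HS_DT (log2 change -1.09 ± 0.20), and Npy, neuropeptide Y, at 3.84, 2.84 and 2.52 FPKM in HS_SCR, against 1.06, 1.18 and 0.563 in HS_DT (log2 change -1.07 ± 0.22). F13a1, a coagulation factor chain of macrophages, had a change of -1.30 ± 0.41; Krt18 and RGD1563319, given above, were also called lower under the factor. Of the higher calls, Kcnj10 (adjusted p = 0.0423 with the factor), Immp2l, Caln1, Lmod1 and Ccl12 were given above. Lipg, endothelial lipase, stood at 0.8902, 0.509 and 0.633 FPKM in HS_SCR and 2.52, 2.33 and 2.4 in HS_DT (log2 change 1.03 ± 0.18). Cnr1, a cannabinoid receptor, stood at 1.51, 1.45 and 0.805 FPKM in HS_SCR, against 3.31, 3.34 and 3.32 in HS_DT (log2 change 0.96 ± 0.19), and Nexn, an actin-binding protein of muscle, at 9.56, 7.94 and 5.23 FPKM in HS_SCR, against 16.1, 14.6 and 14.7 in HS_DT (log2 change 0.94 ± 0.17). In each of these the 3 HS_DT rats were close together and all above HS_SCR.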

How the data were processed

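Per the labels' protocols, Trizol was used for RNA and an Illumina NeoPrep system for the libraries. The deposited table gives FPKM per locus as the authors computed it; per the submitters' processing notes the tools include Cufflinks 2.2.1 and Trim Galore 0.2.5, on build rn5. The aligner, annotation, strand setting and scaling across libraries were not stated in the sources used here. Columns were matched to rats by number; 1 further value column, which repeats HS_DT replicate 3 at all 30315 loci, was not used. The labels call each sample an individual rat. An exact 0 in such a table can be a failed estimate and is given as listed at 0.

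Loci averaging at least 1 FPKM over all 9 libraries were analysed as log2(FPKM + 1), so a log2 change understates that of low loci. Limma 3.58.1 in R 4.3.3 (limma-trend; 3 groups in 1 fit, 6 residual degrees of freedom, 8.54 after moderation) tested HS_DT minus HS_SCR, two-sided, with Benjamini-Hochberg adjustment over the 14338 loci and calls at an adjusted p under 0.05. The fit was tested on simulated data. These gave each locus the same spread in all 3 groups, so the wider spread of HS_SCR was not covered. Exact permutation tests used the 20 arrangements of 3 against 3. Tables and plots used Python 3.11.15, pandas 2.3.3, numpy 2.4.6 and matplotlib 3.10.9. FPKM ranges do not overlap where every library of a group lies beyond every library of the other. The members and the 48 gene lists were chosen with earlier results of these data known; where several loci share a name, the list takes the one with the highest mean.

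Named were Dnmt3a and Tet3; per direction, 12 single-symbol genes with the largest called change, filled by the smallest p among those with ranges apart; up to 4 called members of each list, or the 2 with the smallest p; 8 genes per direction with the largest called change without HS_SCR replicate 3 and with the rat series; and 6 per direction that set that library apart, of which 2 loci named as microRNA precursors were left out. SLC12A1 and Umod (tissue), other DNA methylation genes, cell-type markers under the filter, and Lcn2 and Hba1 in their lists were named by role. A few genes so chosen are not reported here. Alternatives were other pseudocounts, filters, scalings and moderation, library weights, fewer libraries, a replicate block, the rat series, a proximal tubule covariate and, chosen after seeing the data, subtraction of a lowess curve (span 0.3) against locus width within each library. Promoter sequences are from RefSeq (GRCr8). The GapmeR sequences were not used here.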

Additional observations from a re-analysis of the deposited data

How the results depend on the processing

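The direction of the log2 change was the same for every one of the 129 genes that the naming rules chose for the comparison under each of the 21 alternatives in which it was tested (21 of the genes were not tested at a minimum of 5 FPKM); 2296 of the 2688 values kept their side of the threshold, 383 passed it only in the alternative and 9, all of Cldn7, no longer did. The 10 named genes that set HS_SCR replicate 3 apart are not in that number. With 2 unnamed loci they give 252 values, of which 22 in 5 loci reversed. The smallest adjusted p of the comparison among them was 0.191 in the main fit. Glycam1 reversed from 0.037 in the main fit to -1.28 without HS_SCR replicate 3 (limma adjusted p = 0.0125). It also reversed among high-salt rats of the lower-numbered series alone (-1.18, limma adjusted p = 0.0309). The change of these loci was left out after these values had been seen.

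The count of loci called was 1 in the main analysis and 0 after quantile normalization, with the proximal tubule score, with the width trend removed and with the replicate block. It was 3 without a filter (Cldn7, Plekha6 and a locus with an Ensembl identifier only), 154 at a minimum of 5 FPKM (32 higher, 122 lower), 422 with the rat series, 1056 in high-salt rats 781 to 785 and 1496 with library weights, whose estimation did not fully converge. Over the fits that leave out 1 library it ran from 0 to 2300. With only the 6 high-salt libraries 1 locus was called, which was not Cldn7. Deviations of same-numbered rats had r across loci of 0.26, -0.054 and 0.19, against -0.31 to 0.094 for other pairs; since not all 3 exceeded 0.1, and no label says what a number marks, the numbers were not taken to pair the rats, though numbers 1 and 3 correlated best with their own. Cldn7 lost its call after quantile normalization (-0.73, adjusted p = 0.103), with 6 libraries (0.193), with the replicate block (0.0821), with the proximal tubule score (-0.87, adjusted p = 0.157), with the width trend removed, and without HS_SCR replicate 2 or any HS_DT library, as given above; it held in the other 12 (adjusted p from 0.00784 to 0.0385).

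Dnmt3a ran from 0.20 to 0.57 and Tet3 from 0.22 to 0.53 with 1 library left out. With library weights both were called higher (0.57, adjusted p = 0.0297, and 0.52, adjusted p = 0.0258), and in rats 781 to 785 Tet3 was (0.54, adjusted p = 0.0367). Medians of lists that moved by more than the replicate spread are these. In rats 781 to 785 they were 0.10 for histone modifiers, -0.19 for RNase H and antisense handling, -1.13 for erythroid markers, 0.0045 for renin-angiotensin genes, -0.022 for p53 targets, -0.16 for heat shock, -0.29 for the proteasome, -0.082 for splicing, 0.093 for the cell cycle, -0.022 for insulin-like growth factor genes, 0.0086 for transcription factors and -0.015 for aquaporins. With library weights they were 0.10 for histone modifiers, 0.018 for p53 targets, 0.24 for immediate early genes and -0.015 for insulin-like growth factor genes. With the width trend removed the ribosomal median was -0.37 and that of claudins 0.020, and at a minimum of 5 FPKM imprinted genes had 0.15 and renin-angiotensin genes 0.026. With the proximal tubule score they were -0.16 for the proximal tubule, 0.39 for podocytes, -0.042 for hypoxia and -0.23 for P450 genes. The score is the mean of the proximal tubule markers themselves, so the value of that list was bound to shrink and checks nothing. After quantile normalization the medians were -0.026 for RNase H, 0.094 for intercalated cells, 0.0014 for macrophages, -0.021 for hypoxia, 0.46 for mitochondrially encoded, -0.12 for ribosomal and -0.13 for proteasome genes. The causes were not tested.

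With 1 library left out, the lists that moved ran from -0.11 to 0.27 for aquaporins, -0.22 to 0.019 for claudins, 0.11 to 0.25 for the distal convoluted tubule, -0.14 to 0.094 for endothelium, -1.25 to -0.26 for erythroid markers, -0.18 to 0.27 for heat shock, -0.17 to -0.062 for hypoxia, -0.18 to -0.040 for insulin-like growth factor genes, -0.091 to 0.12 for intercalated cells, -0.33 to -0.11 for macrophages, -0.074 to 0.13 for osmolyte genes, -0.0098 to 0.39 for pericytes, -0.018 to 0.34 for podocytes, -0.18 to -0.059 for RNase H, 0.017 to 0.087 for renin-angiotensin genes, -0.11 to 0.062 for splicing and -0.12 to 0.032 for p53 targets. With no counts, depth sets no interval here; n = 3 a side and the spread within HS_SCR limit what the test can call.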

Other observations

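HS_SCR replicate 3 differed from the mean of the other 2 HS_SCR rats most in these genes, given as a description with no test. It was higher in Cd163, the haptoglobin-haemoglobin scavenger receptor of macrophages (5.44 on the log2 scale), Pck1, of gluconeogenesis (4.27), the cold-induced RNA-binding protein gene Rbm3 (2.75), the fibrinogen gene FGA (2.64) and the fasting- and FOXO-responsive gene DEPP (2.53). It was lower in Kap, the androgen-regulated kidney protein of the proximal tubule (-4.95), the ribosomal stalk gene Rplp2 (-4.57), Glycam1 (-3.95), Adh6 (-3.58) and the transporter gene Slc7a13 of the straight proximal tubule (-3.19). Kap stood at 102, 1327 and 10.95 FPKM in the 3 HS_SCR rats and Slc7a13 at 10.1, 162 and 3.66, so replicates 1 and 2 also lay over 10-fold apart. Cd163 stood at 0.1599, 0.989 and 64.9 FPKM in the 3 HS_SCR rats and at 0.103, 0.171 and 0.766 in the 3 HS_DT rats.

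The locus called in the fit of the 6 high-salt libraries, ENSRNOG00000048461 on chromosome 11 at 401924 to 407826 (rn5), was listed at 90.5, 51.4 and 62.1 FPKM in HS_SCR and at 0 in all 3 HS_DT libraries. On 0.4% salt it was listed at 103, 99.6 and 0 FPKM. A level of 0 beside values of this size occurred in both diets, and no fold is given; it was singled out after its values were seen.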
